A study of Homo sapiens with 11 samples.

Results

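Transcript levels of 9 regulators of the tumour suppressor p53 were followed in MV4-11, an established human acute myeloid leukaemia line. The genes were chosen by name, as known or proposed regulators of p53, when earlier results of these data were known: MDM2, MDM4, PPM1D, BCL11A, TRIM24, USP7, SIRT1, HDAC1 and HIPK2. They are 9 of 22109 genes that had a transcript cluster, the array's set of probes for a locus, listed under a single gene symbol. Each had exactly 1 such cluster, and all 9 were among the 12147 genes that passed a filter on low levels. The 8 knockdown cultures were transduced with shRNAs and kept with doxycycline at 3 µM for 24 hours. They carried shRNAs against RUNX1, RUNX2 and RUNX3 singly (shRUNX1, shRUNX2, shRUNX3), in each pair (shRUNX1+shRUNX2, shRUNX1+shRUNX3, shRUNX2+shRUNX3) or all 3 together, or a luciferase shRNA alone (shLuc). The remaining 3 cultures, without a transduction or doxycycline in their labels, were kept for 6 hours with 1 µM of the alkylating PIP conjugate Chb-M', with 1 µM of the conjugate Chb-50, or with DMSO alone. Every condition is 1 array of total RNA from 1 cell line, so a condition has no replicates of its own.

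The p53 protein is made all the time and destroyed all the time. MDM2, a ubiquitin ligase, marks it for the proteasome, and the related protein MDM4 binds MDM2 and covers the part of p53 that activates transcription. Because p53 switches on MDM2 and PPM1D, both genes are at once its brakes and its targets. RUNX factors are transcription factors that bind the core sequence TGTGGT or the variant TGCGGT, and the series examined how gene expression changes when they are knocked down or when cells meet the PIP conjugates. BCL11A and TRIM24 were included because the study treats them as genes through which RUNX factors hold p53 back.

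All levels below are deposited log2 values, on which a difference of 1 is 2-fold. On knockdown arrays the effect of each shRNA was estimated with limma from all 8 arrays together, and the compounds were compared with DMSO with the spread of those arrays. RUNX2 averaged 5.70 ± 0.107 (SD, n = 4) on arrays with its shRNA and 6.14 ± 0.123 (SD, n = 4) on arrays without it. RUNX3 averaged 7.74 ± 0.105 (SD, n = 4) with its shRNA and 8.11 ± 0.291 (SD, n = 4) without it. The array labelled shRUNX1 read 7.70 for RUNX3, inside the 7.65 to 7.87 of the arrays whose labels name the RUNX3 shRNA. The shRNA estimates and slopes described for BCL11A, TRIM24, HIPK2, SIRT1 and MDM2 are therefore also given without it. RUNX1 has no cluster under its symbol alone and its knockdown was not analysed here. Of 9 myeloid and leukaemia markers 6 were tested. Among them the cytokine receptors FLT3 read 9.33 to 9.87 and CSF1R 7.41 to 8.07, while ITGAM read only 3.84 to 4.49. The myeloid marker CD14 stayed at 2.21 to 2.56, below the level filter of 3.80. So did the T cell markers CD3E, CD3D and CD2, between 2.09 and 3.37. The B cell marker CD79A, at 4.11 to 4.92, and the epithelial marker KRT8, at 4.39 to 4.97, passed it. The other measured B cell, erythroid and epithelial markers did not.

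After 6 hours with Chb-M' or Chb-50, MDM2 and PPM1D, which p53 itself switches on, lay above DMSO. The p53 kinase HIPK2 lay below it, and BCL11A was close to it. No member passed the limma test after adjustment over all tested genes in either comparison. With Chb-M' 0.132% of all tested genes were called higher and 0.477% lower, and with Chb-50 0% were called in either direction. At an unadjusted p under 0.05 limma marked 3 of the 9 members with Chb-M' (MDM2, PPM1D and TRIM24), against 13.9% of all tested genes, and 2 with Chb-50 (MDM2 and PPM1D), against 9.17%. At 1.5-fold, with no test, 1 member was higher with Chb-M' (2.25% of all tested genes) and 1 lower (3.21%), and with Chb-50 1 was higher (1.39%) and 0 lower (1.98%). At 2-fold the count was 0 for both compounds, where 0.313% of all tested genes were higher and 0.56% lower with Chb-M', and 0.14% and 0.156% with Chb-50.

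**Figure D1:**
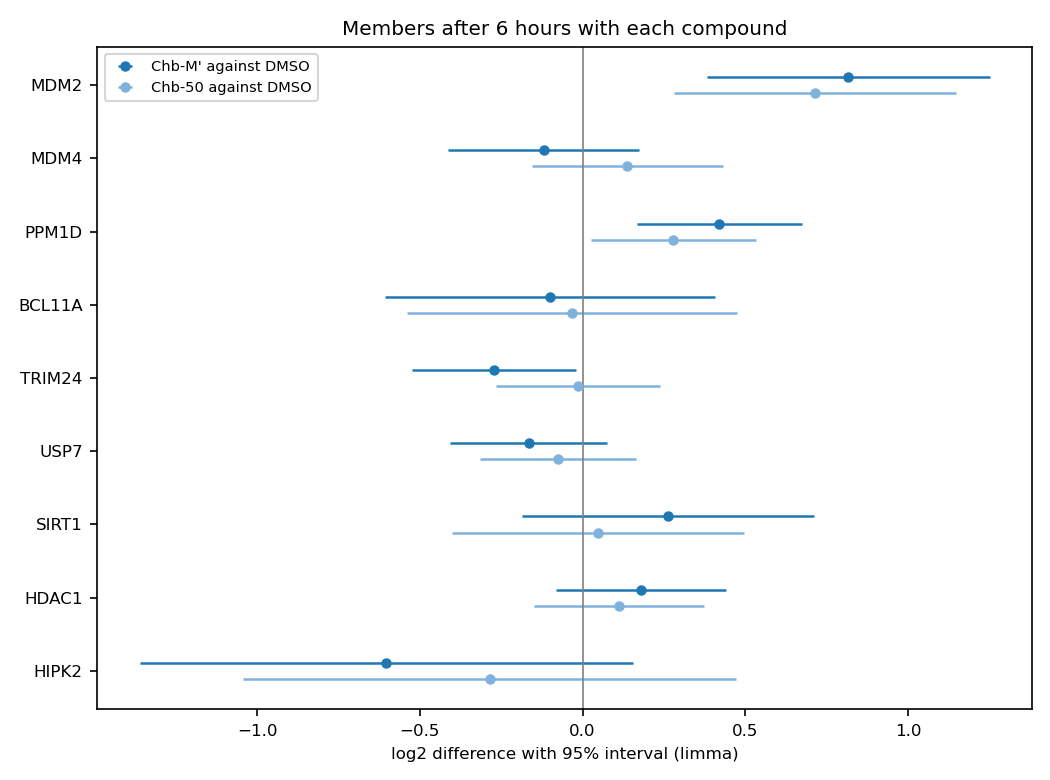
Log2 differences of the 9 members between each compound array and the DMSO array, with 95% intervals from limma that use the spread of the knockdown arrays. For both compounds only the intervals of MDM2 and PPM1D lie wholly above 0, and with Chb-M' the interval of TRIM24 lies wholly below 0.

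The MDM2 gene has a downstream promoter known for its p53 sites, and its sequence is shown because MDM2 was the highest member with both compounds. RefSeq's table for GRCh38 lists 4 start sites for MDM2, with windows of 250 bases before and 50 after each. The window at chr12:68808767-68809066 on the plus strand follows, 5′ to 3′. Capitals mark stretches that match the p53 consensus of 20 bases with 2 mismatches at position 157 and with 3 at position 195, counted from the first base of the window.
MDM2: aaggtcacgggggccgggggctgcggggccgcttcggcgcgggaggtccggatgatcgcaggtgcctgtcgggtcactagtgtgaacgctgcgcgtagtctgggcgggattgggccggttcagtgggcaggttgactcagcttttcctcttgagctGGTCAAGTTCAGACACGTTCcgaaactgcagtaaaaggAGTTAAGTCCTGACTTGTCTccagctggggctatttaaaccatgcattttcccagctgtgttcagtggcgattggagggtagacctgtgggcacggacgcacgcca
A match with at most 2 mismatches was found in 0.649% of all 35116 windows in the table, and one with at most 3 in 5.2%. The limit on mismatches was set after this sequence had been seen. The overlapping window that starts 7 bases further on holds the same matches, so 2 of the 4 MDM2 windows held matches. No window of the other members with a listed promoter, PPM1D among them, held one. Such a match describes the letters and is not evidence that p53 binds there. The part of these stretches in the MDM2 levels was not tested.

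MDM2 read 9.58 with Chb-M' and 9.47 with Chb-50, against 8.76 with DMSO. Both compound arrays stood above all other arrays, since the highest knockdown array, shRUNX1+shRUNX2, read 9.08. The difference was 0.82 with Chb-M' (limma SE 0.185, 95% interval 0.38 to 1.25, adjusted p = 0.116), or 1.76-fold, the 77th highest of 12147 genes. With Chb-50 it was 0.71 (limma SE 0.185, interval 0.28 to 1.15, adjusted p = 0.307), or 1.64-fold, the 95th highest. Under the alternatives tried for Chb-M', the adjusted p of MDM2 ranged from 0.0713 to 0.201, so it missed the threshold in each.

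PPM1D encodes the phosphatase WIP1, which removes activating phosphates from p53 and its kinases. It read 7.78 with Chb-M' and 7.63 with Chb-50, against 7.35 with DMSO, and the knockdown arrays lay between 7.21 and 7.35. The compound arrays were again above all others. The difference was 0.42 with Chb-M' (limma SE 0.108, interval 0.17 to 0.67, adjusted p = 0.152) and 0.28 with Chb-50 (limma SE 0.108, interval 0.03 to 0.53, adjusted p = 0.497).

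MDM4, the partner of MDM2, read 7.54 with Chb-M' and 7.79 with Chb-50, against 7.66 with DMSO, so the compounds lay on opposite sides of the vehicle. The limma differences were -0.12 for Chb-M' (interval -0.41 to 0.17, adjusted p = 0.739) and 0.14 for Chb-50 (interval -0.16 to 0.43, adjusted p = 0.848).

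TRIM24 is a ubiquitin ligase and chromatin reader that can mark p53 for destruction. It read 7.84 with Chb-M' and 8.10 with Chb-50, against 8.11 with DMSO. The Chb-M' array was the lowest of all 11, and Chb-50 was level with DMSO. The difference was -0.27 with Chb-M' (limma SE 0.107, interval -0.52 to -0.02, adjusted p = 0.319), or 82.9% of the DMSO level, and -0.01 with Chb-50 (interval -0.27 to 0.24, adjusted p = 1.0).

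BCL11A is a zinc finger repressor that works with the NuRD chromatin complex. It read 6.65 with Chb-M' and 6.72 with Chb-50, against 6.75 with DMSO, and these 3 arrays were its lowest. The differences were -0.10 with Chb-M' (limma interval -0.61 to 0.41, adjusted p = 0.901) and -0.03 with Chb-50 (limma interval -0.54 to 0.47, adjusted p = 1.0). These intervals are wide and leave room for a 1.5-fold fall at the lower end of the Chb-M' one. USP7, which removes ubiquitin from MDM2 and p53, read 9.09 with Chb-M' and 9.19 with Chb-50, against 9.26 with DMSO. Its difference was -0.17 with Chb-M' (limma interval -0.41 to 0.08, adjusted p = 0.541).

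SIRT1 and HDAC1 are deacetylases that take acetyl groups off p53, which lowers its activity. SIRT1 read 7.36 with Chb-M' and 7.15 with Chb-50, against 7.10 with DMSO, and the Chb-M' value was the highest of the 11 arrays. HDAC1 read 8.80 with Chb-M' and 8.74 with Chb-50, against 8.62 with DMSO. All of these differences had intervals that include 0: for Chb-M' they were 0.26 for SIRT1 (limma adjusted p = 0.61) and 0.18 for HDAC1 (limma adjusted p = 0.539).

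HIPK2 is a kinase that phosphorylates p53 after severe DNA damage and turns it towards cell death genes. It read 6.52 with Chb-M' and 6.84 with Chb-50, against 7.12 with DMSO. HIPK2 had the most negative difference of the 9 members with each compound, -0.60 with Chb-M' (limma SE 0.322, interval -1.36 to 0.15, adjusted p = 0.47) and -0.28 with Chb-50 (interval -1.04 to 0.47, adjusted p = 0.891). The Chb-M' array was 1.52-fold below the DMSO array. Its spread over the knockdown arrays was the widest of the members, and the intervals include 0. That spread can hold shRNA effects that do not add up as well as noise.

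The members differ in how much genome their genes span, and levels with Chb-M' moved with that span across all protein-coding genes tested. In RefSeq's annotation of GRCh38.p14, MDM2, MDM4, SIRT1 and HDAC1 span 10 to 50 kb, a class whose 4844 genes had a median difference of 0.06. PPM1D and USP7 fall in the class of 50 to 100 kb, with a median of -0.05 over 1732 genes, and BCL11A and TRIM24 in that of 100 to 200 kb, with a median of -0.19 over 1066 genes. HIPK2, at 216 kb, is in the class above 200 kb, where the median was -0.40 over 545 genes and 31.9% lay at least 1.5-fold below DMSO. With Chb-50 the median of that class was -0.25, and on the triple knockdown against shLuc it was 0.03. MDM2, SIRT1 and PPM1D stood above the upper quartile of their classes and MDM4 below the lower one, while USP7, HDAC1, BCL11A, TRIM24 and HIPK2 lay within the quartiles of theirs. The part of gene span in the members' values was not tested.

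**Figure D2:**
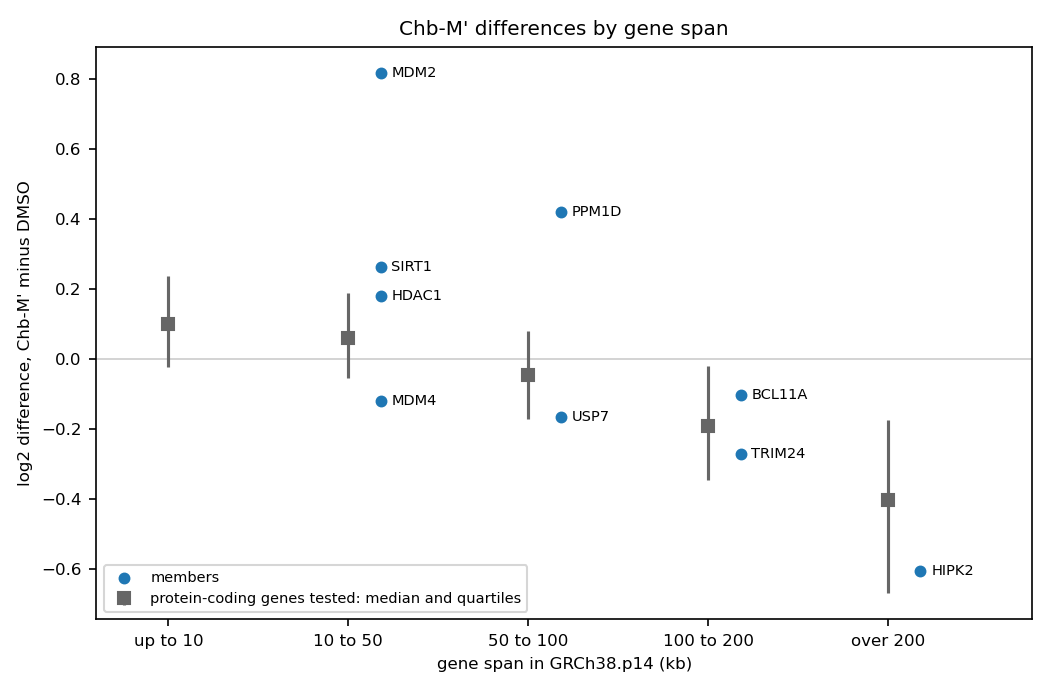
Chb-M' minus DMSO log2 difference (vertical axis) by the span of the gene in kb (horizontal classes). Squares and bars give the median and quartiles of all protein-coding genes tested, which run from 0.10 at up to 10 kb to -0.40 above 200 kb, and points give the 9 members, of which MDM2 and PPM1D lie well above their classes.

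Between the compounds, at the same dose and time, no member differed after adjustment, and no gene at all was called by limma (0% in either direction, and 7.15% of genes with 1 member at an unadjusted p under 0.05). No member lay 1.5-fold apart, as 1.23% of all tested genes did in the higher and 1.08% in the lower direction. TRIM24 was the member with an unadjusted p under 0.05, with a Chb-M' minus Chb-50 difference of -0.26 by limma (interval -0.51 to -0.01, adjusted p = 0.682). MDM4 had the same estimate, -0.26 (limma interval -0.55 to 0.04, adjusted p = 0.744). For MDM2 the difference was 0.10 (limma interval -0.33 to 0.54, adjusted p = 0.994), for PPM1D 0.14 (interval -0.11 to 0.39, adjusted p = 0.897) and for BCL11A -0.07 (interval -0.58 to 0.44, adjusted p = 1.0). These intervals do not show that the compounds act alike.

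Beyond MDM2 and PPM1D, a list of 44 p53 target genes lay mostly above DMSO with both compounds. The list was put together with results of these data known, so its direction is no independent evidence. With Chb-M' 36 of 38 tested targets were positive, where 6599 of all 12147 tested genes were. The targets had a median of 0.49, against a median of 0.02 over all tested genes. By the limma test, where 0.132% of all tested genes were called higher, 4 targets rose. These were CDKN1A, the inhibitor of cyclin-dependent kinases (1.44, adjusted p = 0.047), the DNA damage response gene GADD45A (0.95, adjusted p = 0.0447), the DNA repair factor XPC (0.92, adjusted p = 0.0426) and the death receptor TNFRSF10B (0.84, adjusted p = 0.0486). With Chb-50, 35 of 38 were positive, where 6015 of all 12147 tested genes were. The median was 0.34, against 0.00 over all tested genes. By limma 0 targets were called, while 17 had an unadjusted p under 0.05, against 9.17% of all tested genes. All 4 calls were lost when any 1 knockdown array other than shRUNX1 was left out, and 2 of them, CDKN1A and TNFRSF10B, also without shRUNX1. Over these left-out arrays the limma adjusted p reached 0.102 for CDKN1A, 0.116 for GADD45A, 0.112 for XPC and 0.124 for TNFRSF10B. All 4 calls were also lost without the level filter (limma adjusted p from 0.0651 to 0.0753). That of TNFRSF10B was lost with the mean over clusters as well (limma adjusted p = 0.0512). On the triple knockdown, against shLuc, 15 of the 38 targets were positive, with a median of -0.05. The number positive was 26 on shRUNX1+shRUNX2 (median 0.10), 24 on shRUNX2 and 18 on shRUNX2+shRUNX3. It was 15 on shRUNX3 and 11 on each of shRUNX1 (median -0.11) and shRUNX1+shRUNX3. Of all 12147 tested genes, between 5608 (shRUNX2) and 6205 (shRUNX1+shRUNX3) were positive on these arrays. Of the called targets, TNFRSF10B, XPC and GADD45A differed from shLuc by 0.48, 0.42 and 0.12 on the triple knockdown, and CDKN1A by -0.38. CDKN1A read 7.36 with Chb-M' and 7.14 with Chb-50, against 5.91 with DMSO, and 5.33 on the triple knockdown, against 5.71 with shLuc. The 2 comparisons with DMSO share that array.

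Other genes that act on p53 were less uniform. Over all tested genes 13.9% had an unadjusted limma p under 0.05 with Chb-M', and 0.132% were called higher and 0.477% lower. Of 19 tested ubiquitin and stability regulators 0 were called with Chb-M' and 3 had an unadjusted limma p under 0.05, and the list's median was 0.01. Its ends were the ligase COP1 at -0.58 and DTL, a subunit of a replication-coupled ligase, at 0.52. Of 19 p53 kinases 0 were called with Chb-M' (4 unadjusted by limma), with a median of -0.02, and they ran between the mitotic kinase PLK1 at -0.89 and the stress kinase PLK3 at 0.49. That count of 0 depends on the setting: GSK3B, a kinase whose gene spans 273 kb, differed by -0.78 (limma adjusted p = 0.0591), and over the alternatives its adjusted p ranged from 0.024, with a variance trend, to 0.137. It passed the threshold also with the stricter filter (limma adjusted p = 0.0494), with equal array medians (0.0464) and without the shRUNX1 array (0.0456). Among 17 acetylation and methylation enzymes (median 0.01, 0 called and 4 unadjusted by limma) the acetyltransferases KAT2B and CREBBP were lowest, at -0.46 and -0.45. The 10 tested NuRD partners of BCL11A had a median of 0.13, with 0 called by limma, also unadjusted. Of 21 relatives of the members, 1 was called by limma with Chb-M': the phosphatase PPM1L fell by 0.89 on the log2 scale (adjusted p = 0.0426, or 0.0882 without the shLuc array), and its gene spans 323 kb. The call was lost without any 1 knockdown array other than shRUNX1 (limma adjusted p up to 0.116) and without the level filter (0.0651). PPM1L read 5.10 with DMSO, above all other arrays. It read 4.21 with Chb-M', 4.52 with Chb-50 and 4.28 to 4.71 on the knockdown arrays. With Chb-50 none of these lists held a gene called by limma. An unadjusted limma p under 0.05 was found for 1 of the 19 kinases and 4 of the 21 relatives of the members, against 9.17% of all tested genes.

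**Figure D3:**
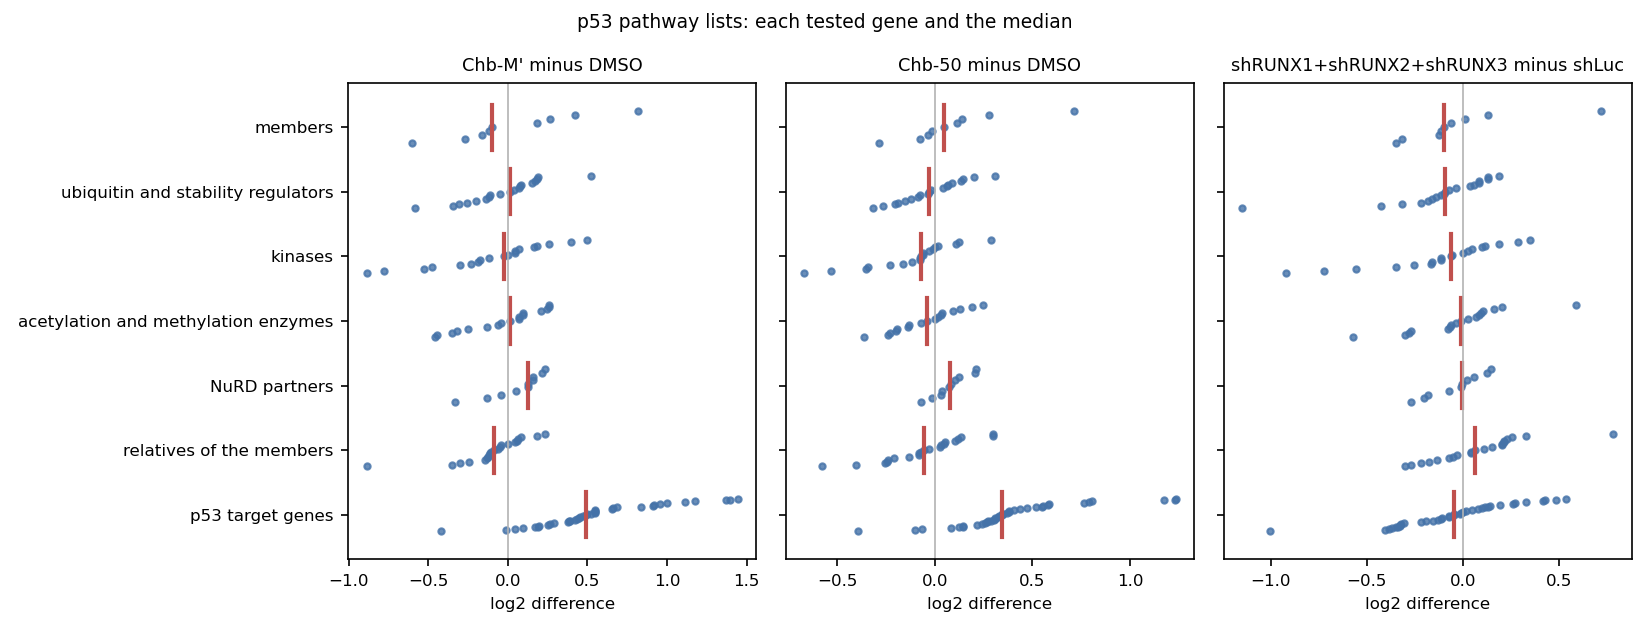
Log2 differences of each tested gene in the p53 pathway lists (points) with each list's median (bars), for Chb-M' against DMSO, Chb-50 against DMSO and the triple knockdown against shLuc. The p53 target genes are shifted to the right of 0 with both compounds (medians 0.49 and 0.34) and not on the triple knockdown (median -0.05), and the other lists are centred near 0.

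Lists of cell cycle genes also differed between these arrays. With Chb-M' the mean of 16 S phase genes was 0.39 above DMSO and that of 16 G2 and mitosis genes differed from it by -0.77, and with Chb-50 these differences were 0.26 and -0.58. The shLuc control itself was 0.33 and 0.12 above DMSO in these means. With either compound 0 of the S phase genes had an unadjusted limma p under 0.05. Of the G2 and mitosis genes 9 had one with Chb-M' and 4 with Chb-50, against 13.9% and 9.17% of all tested genes. Against shLuc, the S phase mean differed by -1.08 on shRUNX1+shRUNX3, -0.92 on the triple knockdown, -0.42 on shRUNX1+shRUNX2 and -0.13 on shRUNX1, and by -0.04 to 0.02 on shRUNX2, shRUNX3 and shRUNX2+shRUNX3. The G2 and mitosis mean differed from shLuc by -1.07 on shRUNX1+shRUNX3, -0.94 on the triple knockdown, -0.56 on shRUNX1+shRUNX2, -0.25 on shRUNX2, -0.16 on shRUNX2+shRUNX3 and -0.15 on each of shRUNX1 and shRUNX3, so it was below shLuc on all 7. These values stand beside the members' results, and their part in them was not tested. In RNA from a whole culture, fewer cells with a transcript and less of it per cell cannot be told apart.

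The knockdown arrays gave small differences for most members. No member was called by limma for the RUNX1, RUNX2 or RUNX3 shRNA, and neither was any other gene (0% in each direction). At an unadjusted p under 0.05 limma marked HIPK2 for the RUNX1 shRNA, where 21.2% of all tested genes were marked, HIPK2 for the RUNX2 shRNA, with 4.88%, and 0 members for the RUNX3 shRNA, with 9.39%. No member separated the 4 arrays with an shRNA from the 4 without, which was so of 5.15% of all tested genes in the higher and 4.73% in the lower direction for RUNX1, 0.807% and 0.733% for RUNX2, and 1.61% and 1.58% for RUNX3. Over the 8 arrays the range within a gene went from 0.12 for USP7 to 1.19 for HIPK2.

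**Figure D4:**
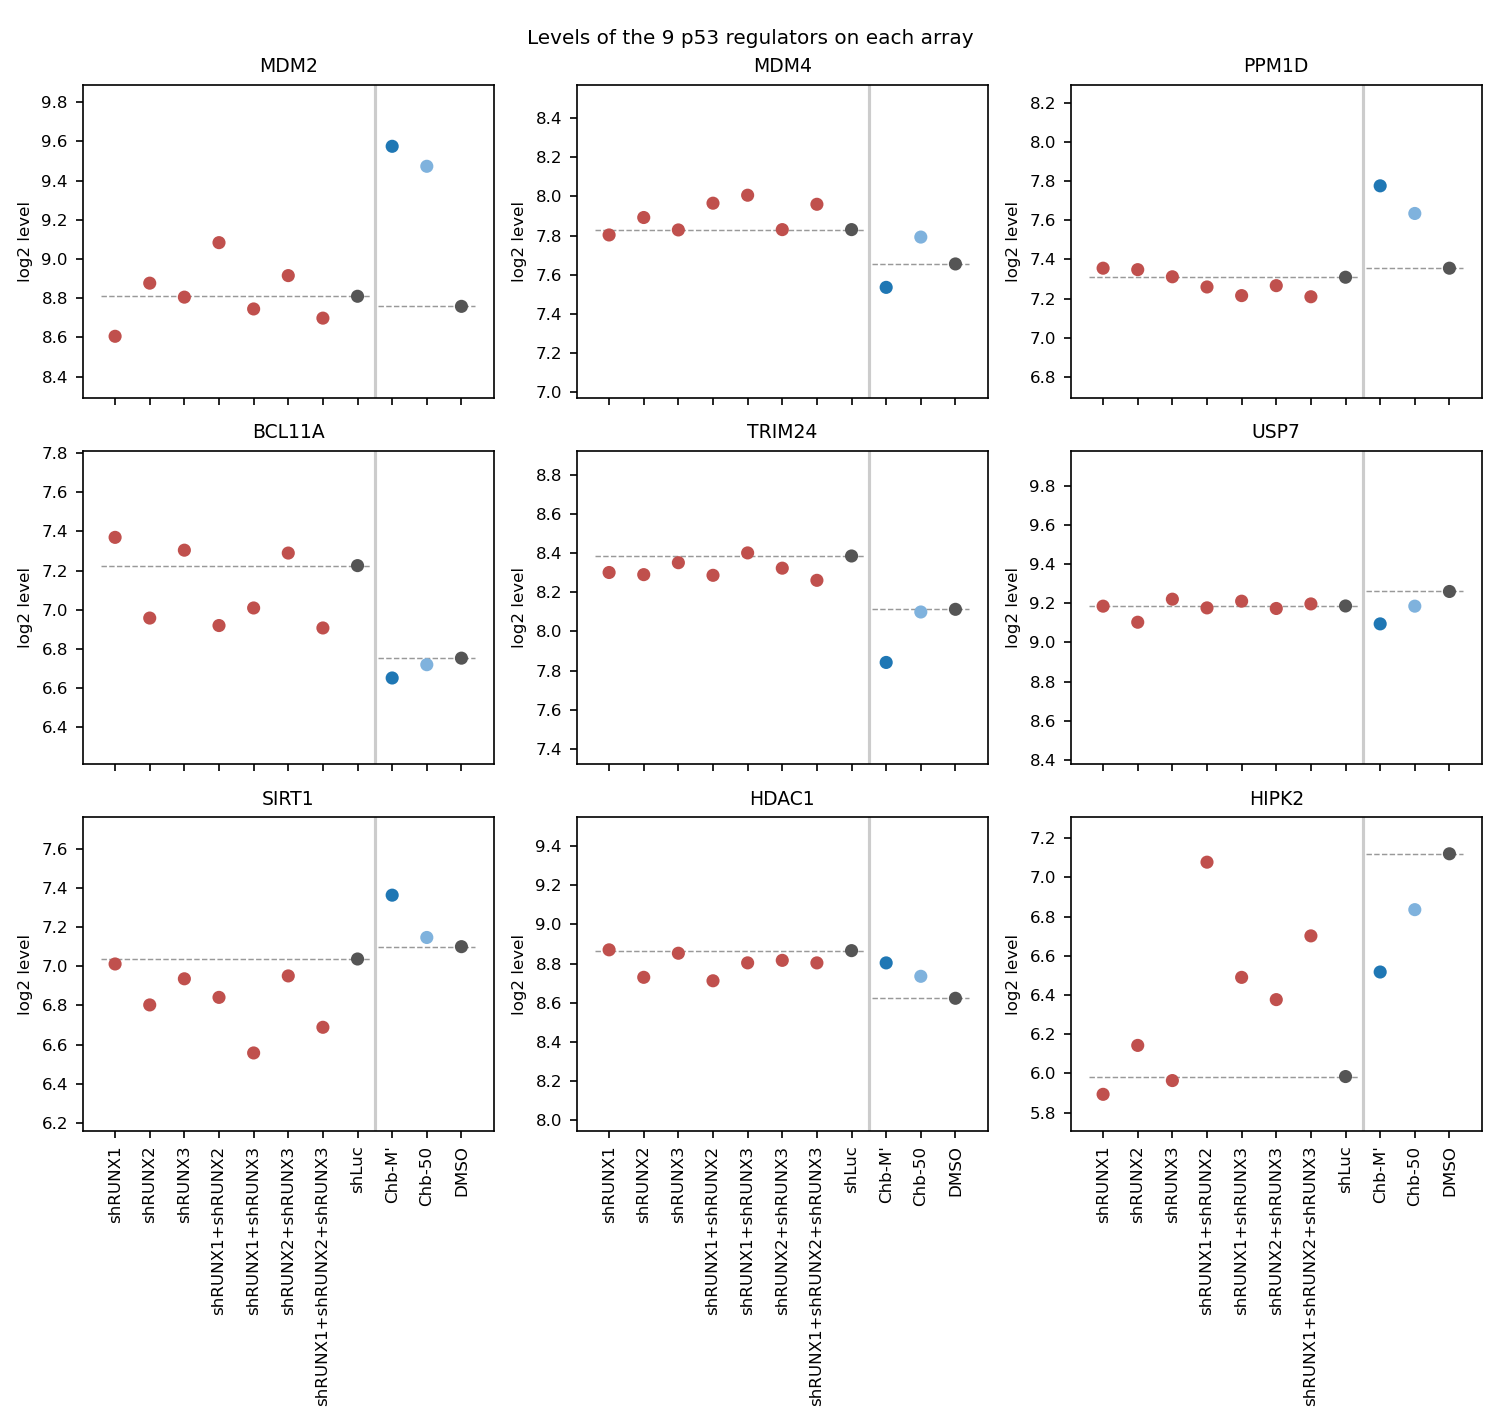
Log2 level of each member on all 11 arrays, with the dashed line at the control of each experiment (shLuc for the knockdowns, DMSO for the compounds) and every panel on its own axis. MDM2 and PPM1D are highest with the compounds, HIPK2 is highest with DMSO and on shRUNX1+shRUNX2, and BCL11A takes its lowest knockdown levels on 4 arrays near 6.91 to 7.01.

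BCL11A had its lowest knockdown levels on the arrays shRUNX1+shRUNX2+shRUNX3, shRUNX1+shRUNX2, shRUNX2 and shRUNX1+shRUNX3. Its RefSeq window at chr2:60528486-60528785 on the minus strand of GRCh38 is shown with those of PPM1D at chr17:60599943-60600242 and SIRT1 at chr10:67884406-67884705, both on the plus strand, because these are the members that carry TGTGGT on the strand of the gene. Capitals mark the motif, and each sequence runs 5′ to 3′.
BCL11A: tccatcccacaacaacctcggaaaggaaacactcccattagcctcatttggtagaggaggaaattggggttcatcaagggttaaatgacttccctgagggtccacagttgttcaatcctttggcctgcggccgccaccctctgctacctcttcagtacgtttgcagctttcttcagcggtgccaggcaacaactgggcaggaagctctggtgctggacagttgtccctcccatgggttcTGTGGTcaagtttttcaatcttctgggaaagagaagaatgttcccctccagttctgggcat
PPM1D: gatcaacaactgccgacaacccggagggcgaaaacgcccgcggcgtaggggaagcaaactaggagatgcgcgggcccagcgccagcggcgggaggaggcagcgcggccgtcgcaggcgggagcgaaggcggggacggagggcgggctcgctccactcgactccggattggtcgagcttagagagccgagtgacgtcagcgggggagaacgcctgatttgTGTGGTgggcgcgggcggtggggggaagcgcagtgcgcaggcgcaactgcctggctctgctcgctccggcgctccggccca
SIRT1: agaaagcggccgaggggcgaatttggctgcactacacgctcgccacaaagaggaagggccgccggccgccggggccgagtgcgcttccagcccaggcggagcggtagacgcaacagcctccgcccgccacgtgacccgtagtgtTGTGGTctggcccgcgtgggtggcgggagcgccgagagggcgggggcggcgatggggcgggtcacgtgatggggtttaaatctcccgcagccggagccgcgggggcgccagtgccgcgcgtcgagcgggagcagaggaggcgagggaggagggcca
The motif begins at position 240 for BCL11A, 220 for PPM1D and 145 for SIRT1. TGTGGT and TGCGGT were searched on both strands and do not overlap each other. Of 16 windows listed for 7 members, 4 held one of them, and the fourth is a USP7 window with TGTGGT on the opposite strand. Of all 35116 windows 19.6% held either motif, 13.1% TGTGGT and 7.29% TGCGGT. BCL11A has 5 listed windows, of which this 1, at a start site inside the gene, held a match. The window at the 5′ end of the gene, chr2:60553875-60554174, held none. The part of the motif in the levels of these members was not tested. A match is a description of the letters and not evidence of binding.

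BCL11A read 6.96 on shRUNX2, 6.92 on shRUNX1+shRUNX2, 7.29 on shRUNX2+shRUNX3 and 6.91 on the triple knockdown, against 7.23 on shLuc, 7.37 on shRUNX1, 7.30 on shRUNX3 and 7.01 on shRUNX1+shRUNX3. The arrays with and without the RUNX2 shRNA overlapped, but within each pair of arrays that differ only in it BCL11A was lower with the shRNA. The difference was -0.27 from shLuc, -0.45 from the array labelled shRUNX1, -0.10 from shRUNX1+shRUNX3 and only -0.015 from shRUNX3. The differences of -0.10 and -0.015 were smaller than the moderated SD of the knockdown fit, 0.153. The limma estimate for the RUNX2 shRNA was -0.21 (SE 0.108, interval -0.46 to 0.05, adjusted p = 0.965), or 86.5% of the level, and without the array labelled shRUNX1 it was -0.10. For the RUNX1 shRNA the limma estimate was -0.14 (interval -0.40 to 0.11, adjusted p = 0.485), or -0.25 without that array (adjusted p = 0.111). It was -0.045 without shRUNX2+shRUNX3 (limma adjusted p = 0.864) and -0.067 without shRUNX1+shRUNX3 (limma adjusted p = 0.823), so its size rests on single arrays. With pairwise interaction terms, the effect of the RUNX1 shRNA in company with the RUNX3 shRNA minus its effect without it was -0.39 by limma (adjusted p = 0.401). SIRT1 had a like term of -0.33 (limma adjusted p = 0.439). The terms of the RUNX2 with the RUNX3 shRNA had the other sign, 0.30 for BCL11A (limma adjusted p = 0.792) and 0.28 for SIRT1 (limma adjusted p = 0.808). Those of the RUNX1 with the RUNX2 shRNA were -0.13 for BCL11A and 0.09 for SIRT1. Interaction terms were not fitted without the array labelled shRUNX1.

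TRIM24 stayed within 8.26 to 8.40 on all knockdown arrays, with the triple knockdown at 8.26 and shLuc at 8.38. It averaged 8.29 ± 0.026 (SD, n = 4) with the RUNX2 shRNA and 8.36 ± 0.044 (SD, n = 4) without it, and was lower in all 4 pairs. The limma estimate was -0.07 (interval -0.20 to 0.06, adjusted p = 0.972), so even its lower end is a change of less than 1.5-fold. For the RUNX1 shRNA it was -0.02 (interval -0.15 to 0.10) and for the RUNX3 shRNA 0.02 (interval -0.11 to 0.14). Without the array labelled shRUNX1 the TRIM24 estimates were -0.0065 for RUNX1, -0.088 for RUNX2 and -0.00019 for RUNX3. USP7 and HDAC1 were also lower with the RUNX2 shRNA in all 4 pairs, by at most 0.08 and 0.16 in size, and in 1 HDAC1 pair the difference was only -0.00019. Being lower in 4 of 4 pairs was thus seen in 4 of 9 members, against 6.34% of all tested genes. The members share the same 8 arrays, so this count was given no test. For the RUNX1 shRNA 0 members were higher (14.9% of all tested genes) and 0 lower (13%) in all 4 pairs, and for the RUNX3 shRNA 1, USP7, was higher (8.06%), by 0.02 to 0.07, and 0 were lower (7.27%).

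HIPK2 had the largest differences of the 9 members on knockdown arrays. It read 7.08 on shRUNX1+shRUNX2, 6.70 on the triple knockdown, 6.49 on shRUNX1+shRUNX3 and 5.89 on shRUNX1, against 5.98 on shLuc, 6.14 on shRUNX2, 5.96 on shRUNX3 and 6.38 on shRUNX2+shRUNX3. The 3 joint knockdowns with the RUNX1 shRNA were highest, the joint RUNX2 and RUNX3 knockdown came next, and single knockdowns lay near shLuc. At 1.5-fold against shLuc, with no test, HIPK2 was the only member past the limit, on shRUNX1+shRUNX2 (1.09, where 2.31% of all tested genes were that much higher) and, with all 3 shRNAs, on the triple knockdown (0.72, with 3.61%). At 2-fold it was past it on shRUNX1+shRUNX2 alone, where 0.247% of all tested genes were. The share of all tested genes 1.5-fold higher was 1.1% on shRUNX1, 0.766% on shRUNX2, 0.683% on shRUNX3, 3.34% on shRUNX1+shRUNX3 and 0.724% on shRUNX2+shRUNX3. The share 1.5-fold lower was 1.23% on shRUNX1, 0.675% on shRUNX2, 0.856% on shRUNX3, 0.766% on shRUNX2+shRUNX3, 1.6% on shRUNX1+shRUNX2, 4.27% on the triple knockdown and 4.96% on shRUNX1+shRUNX3, with 0 members in each. The limma estimate was 0.42 for the RUNX1 shRNA (SE 0.161, interval 0.05 to 0.80, adjusted p = 0.196) and 0.49 for the RUNX2 shRNA (SE 0.161, interval 0.11 to 0.87, adjusted p = 0.965), the 14th highest of 12147. Without the array labelled shRUNX1 the RUNX1 estimate was 0.60 with a limma adjusted p of 0.0377, which passes the threshold. In that fit 817 of the 12147 tested genes were called for the RUNX1 shRNA, against 0 with all 8 arrays. Without shRUNX1+shRUNX2, where HIPK2 read highest, the RUNX1 estimate was 0.25 (limma adjusted p = 0.318). The RUNX2 estimate was 0.32 with either of these arrays left out. HIPK2 was higher with the RUNX2 shRNA in all 4 pairs, as were 7.66% of all tested genes. Per RUNX gene targeted, limma gave a slope of 0.34 (SE 0.0999, interval 0.12 to 0.57, adjusted p = 0.152), or 0.32 without the array labelled shRUNX1 (adjusted p = 0.215). The relatives HIPK1 and HIPK3 were 0.33 and 0.78 higher on the triple knockdown than on shLuc, with no test for single arrays. They were the 2 highest of the 21 tested relatives on that array and are named for that. On shRUNX1+shRUNX2, where HIPK2 was highest, HIPK1 read 7.74 and HIPK3 8.66. On shRUNX1, where HIPK2 was lowest, they read 7.88 and 8.64, against 7.66 and 8.27 on shLuc.

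SIRT1 read 6.56 on shRUNX1+shRUNX3, 6.69 on the triple knockdown, 6.80 on shRUNX2, 6.84 on shRUNX1+shRUNX2, 6.94 on shRUNX3, 6.95 on shRUNX2+shRUNX3 and 7.01 on shRUNX1, against 7.04 on shLuc. Every array with a RUNX shRNA was thus below shLuc, though the 3 nearest differed from it by less than the moderated SD of 0.135. The limma slope per RUNX gene targeted was -0.12 (SE 0.0510, interval -0.24 to -0.01, adjusted p = 0.246), or -0.11 without the array labelled shRUNX1 (adjusted p = 0.322). SIRT1 and HIPK2 were the 2 members with an unadjusted p under 0.05 for this slope, against 19.1% of all tested genes, and limma called 0.00823% of genes higher and 0% lower.

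MDM2 showed no common direction on the knockdown arrays. It read 9.08 on shRUNX1+shRUNX2, 8.92 on shRUNX2+shRUNX3, 8.88 on shRUNX2, 8.81 on shRUNX3, 8.75 on shRUNX1+shRUNX3, 8.70 on the triple knockdown and 8.61 on shRUNX1, against 8.81 on shLuc. Its limma estimates were -0.07 for the RUNX1 shRNA (adjusted p = 0.706), 0.15 for the RUNX2 shRNA (adjusted p = 0.965) and -0.05 for the RUNX3 shRNA (adjusted p = 0.87). Without the array labelled shRUNX1 they were -0.0047, 0.088 and -0.12, in the same order of RUNX1, RUNX2 and RUNX3. On the triple knockdown the difference from shLuc was -0.11. MDM4 lay between 7.80 and 8.01 and PPM1D between 7.21 and 7.35 over the 8 arrays, with no limma estimate beyond 0.09 in size for any shRNA, though without the array labelled shRUNX1 that of MDM4 for the RUNX1 shRNA was 0.13 (adjusted p = 0.204).

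**Figure D5:**
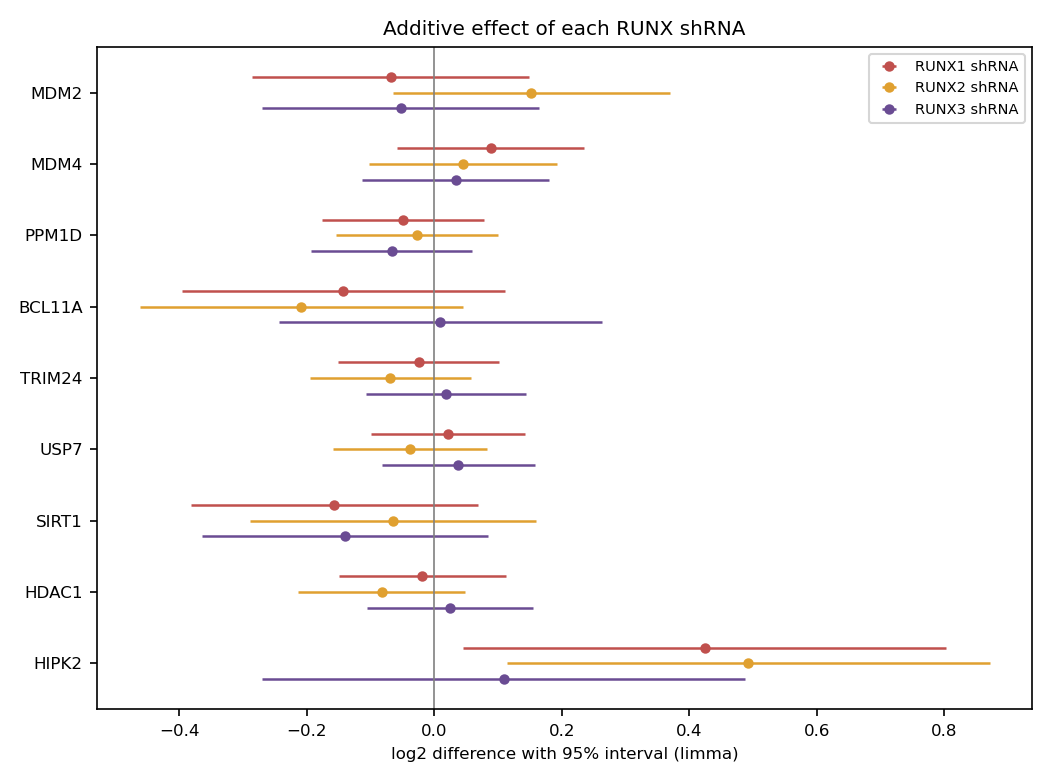
Additive limma estimates of each RUNX shRNA on the 9 members, as log2 differences with 95% intervals. The intervals of HIPK2 for the RUNX1 and RUNX2 shRNAs lie above 0 before adjustment over all genes, and all other intervals include 0.

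The control cultures of the 2 experiments differed from each other. The shLuc minus DMSO difference of HIPK2 was -1.14, and 0.609% of all tested genes were at least 2-fold lower on shLuc. BCL11A was 0.47 and TRIM24 0.27 higher on shLuc. MDM4, BCL11A, TRIM24 and HDAC1 were above DMSO on all 8 knockdown arrays, as were 20.1% of all tested genes, and USP7, SIRT1 and HIPK2 were below it on all 8, as were 17.4%. PPM1D was below DMSO on 7 and level with it on shRUNX1. Transduction, doxycycline and time differ together between these cultures and cannot be told apart. For this reason no level of a compound array was tested against a knockdown array.

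When the 11 levels of each member were put in order, as a description across both experiments, most neighbours differed by less than the moderated SD of the knockdown fit. In the order of MDM2, Chb-50 stood 0.39 above its neighbour shRUNX1+shRUNX2, which is more than 2 moderated SDs. The same held for Chb-50 above shRUNX1 in PPM1D (0.28) and for Chb-50 above Chb-M' in TRIM24 (0.26). No other member had a gap of that size. Across the 8 knockdown arrays, MDM4 and SIRT1 ran opposite to each other (Pearson r = -0.91), as did MDM4 and BCL11A (r = -0.88), while BCL11A and HDAC1 ran together (r = 0.81). The protein-coding genes most like MDM2 over these arrays were RNF225, MVB12B and RMND1 (r = 0.98, 0.97 and 0.97). Those most like BCL11A were TRAPPC2L, XPNPEP3 and HSPH1 (r = 0.96, 0.95 and 0.94), and those most like TRIM24 were ARMC5, DPP9 and TNFRSF1A (r = 0.94, 0.92 and 0.90). The points of these correlations are arrays of different conditions of 1 line and were taken from 10571 genes for their likeness, so they are descriptions. With the 2 arrays farthest from the median of TRIM24 left out, its r with TNFRSF1A was 0.58.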

How the data were processed

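Total RNA of 11 MV4-11 cultures was read on Affymetrix arrays, 1 per condition, and the labels give no array batch. The authors deposited a log2 level for each transcript cluster. RMA, Transcriptome Analysis Console 1.0 and Affymetrix Expression Console 1.3.1 are named per the submitters' processing notes, which give them no roles. Array medians over the tested genes lay between 5.86 and 5.91. No source used here names the build of the probe annotation, and signal over background was not used here, so the number of arrays limits the precision.

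Of 53617 clusters, 23558 carry 1 symbol, 2155 several and 27904 none listed. Entrez identifiers of 22271 clusters matched RefSeq's GRCh38.p14 table, which updated 3 symbols. For 618 genes with more clusters the one with the highest mean was kept. A gene was tested if its highest level was at least 3.80, the median over the values of these clusters.

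limma 3.58.1 (R 4.3.3) was fitted over all 12147 genes, with Benjamini-Hochberg adjustment over them and a threshold of 0.05. The 8 knockdown arrays had additive shRNA terms, or the number of RUNX genes targeted as a slope. Compound differences come from a fit on 11 arrays that assumes the DMSO, Chb-M' and Chb-50 arrays vary like the knockdown arrays after the additive terms, with 7.19 degrees of freedom for 95% intervals. Nothing says that the arrays are separate transductions or days, so the spread behind the p-values is that among these arrays and may be technical. No combination of shRNAs was repeated. What the additive terms leave over therefore holds shRNA effects that do not add up as well as noise, and these cannot be told apart. The p-values and intervals of the compounds rest on the same spread. The code of the fits was run on simulated data with independent noise and known shifts. That check does not cover shRNA effects that do not add up. The members and gene lists were chosen with earlier results of these data known. Named genes are the members, the 2 highest and 2 lowest of each list with Chb-M' and on the triple knockdown, called genes where at most 5 of a list were called, and the 3 genes most like MDM2, BCL11A and TRIM24; not all that this rule allows are printed. RefSeq promoter windows were found for 7 of the 9 members. Alternatives were the filter, equal array medians, the mean over clusters, a variance trend, interaction terms, 2-fold limits and each array left out.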

Additional observations from a re-analysis of the deposited data

How the results depend on the processing

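Replicates could not be paired across conditions, because every condition has 1 array and all labels carry the replicate number 1. Pairs of arrays that differ in 1 shRNA were counted as a description, and the additive limma fit already compares them. No member passed the limma threshold in any comparison under any alternative, except HIPK2 for the RUNX1 shRNA, called without the array labelled shRUNX1, so that 0 to 1 members were called for it when each array was left out. Counts over all tested genes moved more. For the RUNX1 shRNA limma called 0 genes, 68 with a variance trend, 391 with interaction terms and 0 to 817 with each array left out, the most without shRUNX1. For the RUNX3 shRNA it was 0, and 0 to 1 with an array left out. For the slope it was 1, 0 without the level filter and 0 to 234 with an array left out, the most without shRUNX2+shRUNX3. For Chb-M' it was 74, 7 without the filter, 49 with the mean over clusters and 0 to 77 with an array left out, 0 for example without shLuc. Between Chb-M' and Chb-50 it was 0, and 1 with the stricter filter. At a limit of 2-fold in place of 1.5-fold, 0 members in place of 2 passed with Chb-M', 0 in place of 1 with Chb-50, and 1 in place of 2 differences from shLuc. With array medians set equal, 1 member in place of 0, USP7, no longer overlapped, at 9.11 to 9.18 with the RUNX2 shRNA and 9.19 to 9.25 without it; the slopes of MDM2 and USP7 then reversed to -0.0013 and -0.0045. Leaving out single arrays turned the sign of some estimates near 0, which ranged from -0.041 to 0.0047 for HDAC1 with the RUNX1 shRNA, from -0.00080 to 0.084 for MDM4 and -0.15 to 0.018 for SIRT1 with the RUNX2 shRNA, and, with the RUNX3 shRNA, from -0.088 to 0.12 for BCL11A, -0.065 to 0.28 for HIPK2, -0.012 to 0.061 for MDM4, -0.0041 to 0.033 for TRIM24 and -0.12 to 0.046 for MDM2. The slopes ranged from -0.016 to 0.077 for MDM2 and from -0.00062 to 0.014 for USP7. The cause of these changes was not tested.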
